A study of Homo sapiens with 6 samples.

Results

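The genes described here are the 10 core and catalytic subunits of COMPASS, the family of histone H3 lysine 4 (H3K4) methyltransferase complexes, in SK-Hep-1 cells with and without knockdown of the lncRNA *RAB30-DT*. They were found by GENCODE symbol, and all 10 were present among the 62700 genes of the files. The group was chosen by a measured value, since *ASH2L*, 1 of its members, was lower in knockdown cells in the same comparison that is described here. The remaining 9 members were taken because they sit in the same complexes. RNA–Seq covered 6 libraries, 3 of control cells and 3 of knockdown cells. Control cells are titled as carrying a control shRNA and labelled wild type, and knockdown cells are titled as carrying an shRNA against *RAB30-DT*. Stable lines were made with lentiviral pLKO.1 vectors and puromycin, and a pair of *RAB30-DT* shRNA vectors is described for the study, of which the labels of these libraries name neither. Nothing says whether the replicates came from separate cultures, so the spread between them may be technical. Of the identity genes checked, 7 of 8 hepatocyte markers and 7 of 8 endothelial markers stayed under 1 TPM in all 6 libraries, with *ALB*, *HNF4A*, *KDR* and *ERG* at 0. Of 6 mesenchymal markers, *VIM*, the intermediate filament gene, lay between 3793 and 3997 TPM in control and between 4336 and 4784 TPM in knockdown cells. *THY1* (102 to 148 TPM in control, 76.0 to 98.7 TPM in knockdown cells) and *PDGFRB* (2.19 to 5.26 and 1.02 to 1.24 TPM) were lower in knockdown cells without overlap, beside 13.4% of all genes tested. *FN1* (12.8 to 22.8 TPM) and *COL1A1* (0.59 to 2.41 TPM) overlapped, and *COL1A2* stayed at or below 0.12 TPM. The part of these marker differences in the COMPASS values was not tested. Among leukocyte markers, *PTPRC* and *CD3E* were at 0 in every library and *CD14* stayed at or below 0.17 TPM. *CD68*, which other cells also express, lay between 28.4 and 66.8 TPM in control and between 106.5 and 129 TPM in knockdown cells. The exceptions among the hepatocyte and endothelial markers were *SERPINA1* (18.1 to 23.96 TPM in control, 28.25 to 37.2 TPM in knockdown cells) and *TIE1* (up to 3.08 TPM). *SERPINA1*, *VIM* and *CD68* were higher in knockdown cells without overlap, beside 9.89% of all genes tested. The part of these differences in the COMPASS values was not tested either.

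H3K4 methylation marks active genes, with trimethylation at promoters and monomethylation at enhancers. Each COMPASS complex pairs 1 catalytic subunit, a SET domain methyltransferase, with a shared core of WDR5, RBBP5, ASH2L and DPY30, without which the catalytic subunits have little activity. SETD1A and SETD1B place most trimethylation, KMT2A and KMT2B act at selected promoters such as those of the HOX genes, and KMT2C and KMT2D act mainly at enhancers. Levels are given in TPM, a value scaled for gene length and for the total of the library. Levels of different genes can thus be set side by side, although GC content is not part of that scaling. The number of reads is not kept in TPM, so the depth is unknown and the precision rests on 3 libraries per group. These are bulk RNA values, in which fewer cells with a transcript and less of it per cell cannot be told apart.

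*RAB30-DT* (ENSG00000246067.10, plus strand of chromosome 11 of hg38, 83072052 to 83107789), the targeted gene, had 18.2, 11.5 and 13.9 TPM in the control and 11.9, 10.9 and 6.50 TPM in the knockdown libraries. The groups overlapped, and an exact 2-sided permutation test gave p = 0.2, where 0.1 is the smallest p possible. The mean was 32.8% lower in knockdown cells, with a log2 fold change of −0.55 (standard error 0.27). This fold change lay between −0.70 and −0.24 over the 18 alternative settings described below, and was not called in any of them. The paper reports that qPCR bore out the knockdown in this cell line. Of the 62700 genes, 14020 had a mean of at least 1 TPM and were tested with limma on log2(TPM + 1). At an adjusted p under 0.05, 94 had lower and 52 had higher levels after knockdown, with median-of-ratios scaling 69 and 60, and with quantile normalization 83 and 78. The 146 called genes became 489 without control replicate 1, and 12, 18, 15 and 16 without control replicate 2 and knockdown replicates 1, 2 and 3. The deviation of a library from each gene's mean log2(TPM + 1) over the 6 libraries drifted with GC content of the transcript. Spearman's rho of this deviation with GC content, across genes that are not independent, was −0.607 and −0.523 in control and knockdown replicate 1. It was 0.297 and 0.022 in replicate 2, and 0.489 and 0.330 in replicate 3. The 7 bases GAGTGAA, a motif taken from earlier results on these data, occur once in the *RAB30-DT* transcript, from its base 2, in exon 1. The first 30 bases of that transcript (hg38, chr11:83072066-83072095, plus strand, from the GENCODE v44 transcript) are shown because 1 COMPASS gene carries the same 7 bases, which are in capitals.
RAB30-DT: aGAGTGAAggagcaaaggggactcggccgc

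Of the 10 COMPASS subunits, *ASH2L* had the lowest level in knockdown relative to control cells, followed by *RBBP5* and, among the catalytic subunits, *KMT2C*. *ASH2L* encodes the core subunit that binds DNA and, with RBBP5, switches on the SET domain. The 3 control libraries, in the order of their replicate numbers, held 31.9, 30.9 and 30.6 TPM, and the 3 knockdown libraries 8.62, 7.79 and 7.30 TPM. The control libraries were tightly grouped, and the gap between the groups was many times the spread within either. The mean went from 31.1 ± 0.673 to 7.90 ± 0.667 TPM (SD, n = 3 each), which is 74.6% lower. On the log2(TPM + 1) scale the difference was −1.85 with a standard error of 0.17. This is the value that chose the group, so it is given as a description without a test. Among the tested genes, 35 had a lower log2 fold change. With each library left out in turn it stayed between −1.91 and −1.80.

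**Figure D1:**
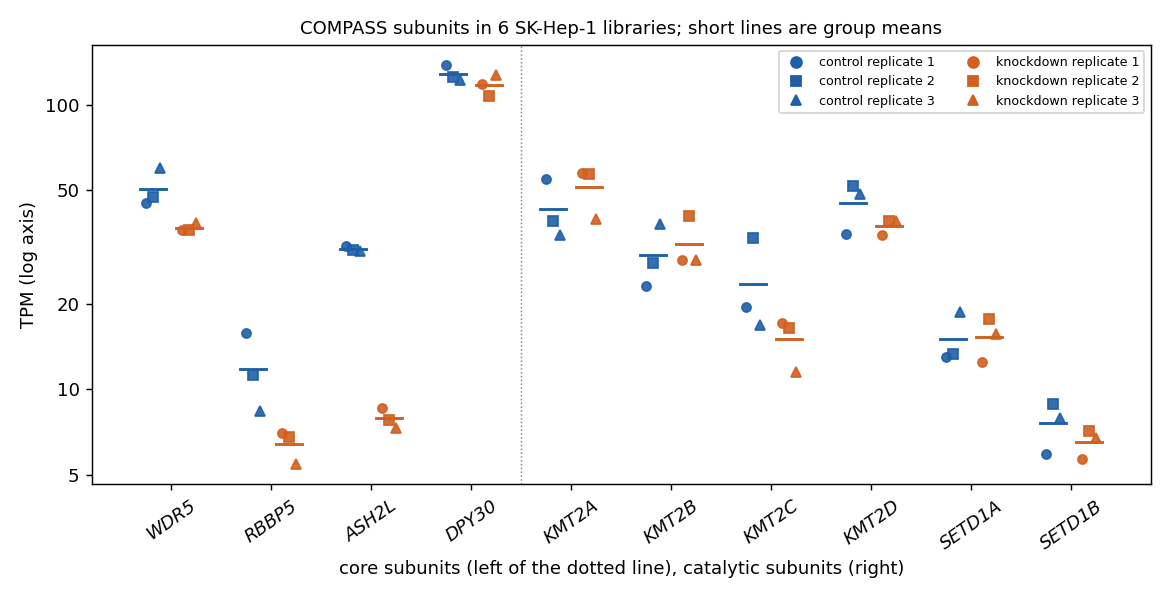
Level of each COMPASS subunit in TPM (log axis) in the 3 control and 3 knockdown libraries, with a point for each library and a short line at each group mean. *ASH2L* lies between 30.6 and 31.9 TPM in control and between 7.30 and 8.62 TPM in knockdown libraries. All 6 catalytic subunits overlap between the groups, where 13.4% (lower) and 9.89% (higher) of all genes tested were without overlap.

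*ASH2L* (ENSG00000129691.16) is encoded on chromosome 8 (hg38, 38105493 to 38144076, plus strand), and its canonical transcript has 16 exons. Its end overlaps *STAR*, a gene of steroid synthesis on the opposite strand, which was between 0 and 0.08 TPM. Its 3 annotated pseudogenes were listed at 0 TPM in all 6 libraries. Its neighbours did not lie near its fold change. Within 250 kb of *ASH2L*, 27 other genes are annotated and 10 of them were tested, with log2 fold changes between −0.32 and 0.43 and none called by limma or with an unadjusted p under 0.05. The highest was *LETM2*, of the inner mitochondrial membrane, named after its values were seen. *LSM1*, a subunit of the mRNA decay ring and the nearest well expressed gene after it, had 63.7 ± 3.22 TPM in control and 51.1 ± 4.18 TPM in knockdown cells (SD, n = 3 each). Its log2 fold change was −0.31 (adjusted p = 0.348), and it was the 1 tested neighbour without overlap of the groups, which held for 13.4% of all tested genes in the lower direction and 9.89% in the higher. *BAG4*, a co-chaperone gene further on, was at 13.39 and 12.96 TPM (−0.05). On the other side, *EIF4EBP1*, a repressor of translation, was at 199 and 157 TPM (log2 fold change −0.32, adjusted p = 0.582). *RAB11FIP1*, of the recycling endosome, was at 9.83 and 11.1 TPM (0.17, adjusted p = 0.736). The lncRNA ENSG00000253356 and ENSG00000280064, a transcript still to be characterised, were the remaining nearest tested genes, at −0.15 and 0.05.

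**Figure D2:**
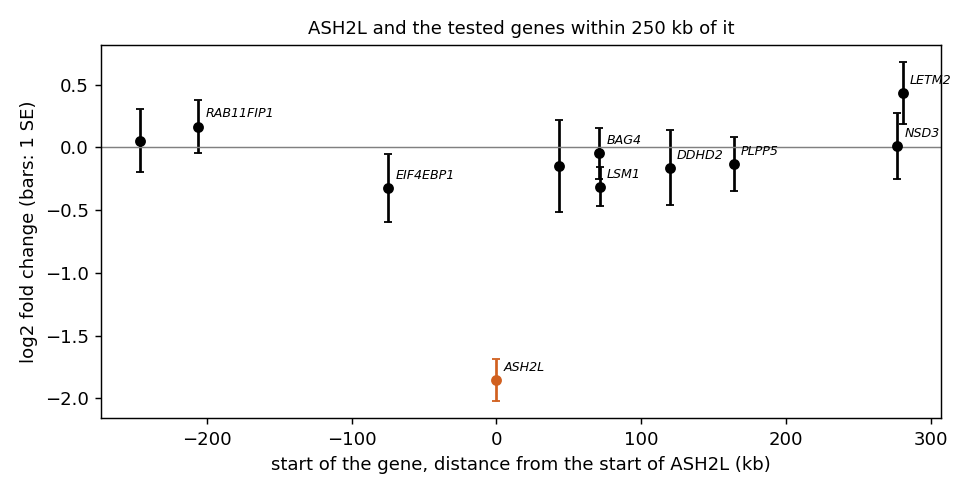
Log2 fold change of *ASH2L* (orange) and of the 10 tested genes within 250 kb (black) against the distance of their start from that of *ASH2L* in kb, with bars of 1 standard error. The neighbours lie between −0.32 and 0.43 and *ASH2L* at −1.85.

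The other core subunits were lower by less. *RBBP5* (ENSG00000117222.14, chromosome 1, 205086142 to 205122015, minus strand), which joins WDR5 to ASH2L, had 15.8, 11.3 and 8.37 TPM in the control and 7.02, 6.80 and 5.45 TPM in the knockdown libraries. All 3 knockdown libraries lay below all 3 control libraries, but the control libraries alone spread over a wider range than the difference between the group means. With a log2 fold change of −0.75 and a standard error of 0.25, *RBBP5* was not called over all genes tested (adjusted p = 0.196 from limma). The transcript of *RBBP5* has 43.6% GC, and with the GC trend of each library removed the change was −0.78 and was called (adjusted p = 0.0372, with a range of 0.0152 to 0.467 over all alternatives). *WDR5* (ENSG00000196363.10, chromosome 9, 134135365 to 134159968, plus strand), the WD40 ring that holds the catalytic subunit, had 44.96, 47.2 and 59.9 TPM in the control and 36.3, 36.2 and 38.5 TPM in the knockdown libraries. Here too the groups were apart, with a log2 fold change of −0.43 (standard error 0.17, adjusted p = 0.260). It was called where limma weighted the libraries by their agreement (adjusted p = 0.0368, with a range to 0.588 over all alternatives). Its paralog *WDR5B*, with which it could share reads, was between 1.65 and 4.88 TPM. *DPY30* (ENSG00000162961.14, chromosome 2, 31867809 to 32039805, minus strand), the small subunit that binds ASH2L as a dimer, had 138, 125 and 122 TPM in the control and 118, 107 and 127 TPM in the knockdown libraries. Its groups overlapped, and its change of −0.13 (standard error 0.15) was smaller than the standard error and became 0.0021 after quantile normalization. *MEMO1*, at 28.7 to 46.2 TPM, overlaps *DPY30* on the same strand, so the split of reads between the pair is uncertain.

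All 10 members were above 1 TPM in every library and passed the filter. Of the 10, 1 was called lower by limma at an adjusted p under 0.05, against 0.67% of all genes tested, and 0 were called higher, against 0.371%. At an unadjusted p under 0.05, 3 were lower and 0 higher, against 9.7% and 7.06% of all genes. These 3 were *ASH2L*, *RBBP5* and *WDR5*, and they were also the 3 members without overlap of the groups. Of all genes tested, 13.4% were without overlap in the lower and 9.89% in the higher direction. Without control replicate 2 or knockdown replicate 2 no member was called, and 2 had an unadjusted p under 0.05. Since *ASH2L* brought the group here, nothing is read from these counts. The median log2 fold change was −0.43 over the 3 core subunits other than *ASH2L* and −0.08 over the 6 catalytic subunits, a difference that was not tested, beside −0.04 over all genes tested.

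**Figure D3:**
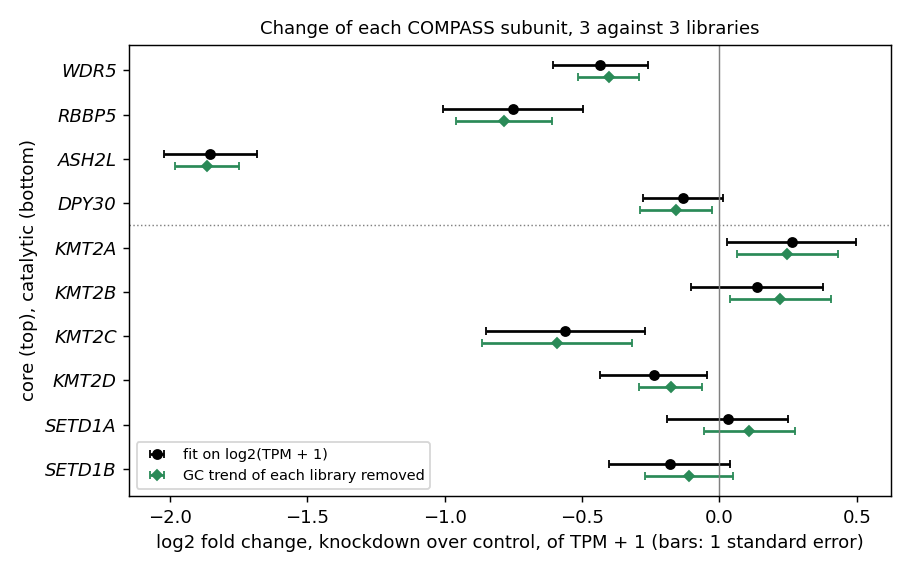
Log2 fold change of each COMPASS subunit, knockdown over control, from the fit on log2(TPM + 1) (black) and with the GC trend of each library removed (green), with bars of 1 standard error. *ASH2L* stands at −1.85 and −1.87, *RBBP5* at −0.75 and −0.78, and the catalytic subunits between −0.59 and 0.26.

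None of the 6 catalytic subunits was called, beside 0.67% (lower) and 0.371% (higher) of all genes tested. None had an unadjusted p under 0.05 from limma, beside 9.7% and 7.06%. In all 6 the groups overlapped, where 13.4% and 9.89% of all genes were without overlap. With 6 genes, nothing is read from these counts. *KMT2A* (chromosome 11, 118436456 to 118526832), the founding mixed lineage leukemia gene, had 55.0, 39.1 and 34.8 TPM in the control and 57.7, 57.04 and 39.7 TPM in the knockdown libraries, a log2 fold change of 0.26 (adjusted p = 0.605). In both groups replicate 3 was the lowest, and the change was 0.13 without control replicate 3 and 0.45 without control replicate 1. *KMT2B* (chromosome 19, 35717973 to 35738880), its closest paralog, had 23.0, 27.8 and 38.1 TPM in the control and 28.4, 40.5 and 28.4 TPM in the knockdown libraries. Its change of 0.14 (adjusted p = 0.815) was smaller than its standard error of 0.24, and it turned to −0.02 without control replicate 1 and −0.03 without knockdown replicate 2.

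*KMT2C* (chromosome 7, 152134922 to 152436644) and *KMT2D* (chromosome 12, 49018975 to 49060794) encode the enhancer methyltransferases. *KMT2C* had 19.4, 34.0 and 16.8 TPM in the control and 17.2, 16.5 and 11.5 TPM in the knockdown libraries. Control replicate 2 was the high library, and the log2 fold change went from −0.56 (standard error 0.29, adjusted p = 0.371) to −0.27 without it. Where limma weighted the libraries by their agreement, which gave control replicate 2 more weight, *KMT2C* was called (−0.92, adjusted p = 0.0154, with a range to 0.702 over all alternatives). The pseudogene copies *KMT2CP1* to *KMT2CP5* were at 0 TPM. *KMT2D* had 35, 51.8 and 48.6 TPM in the control and 34.8, 39.0 and 39.1 TPM in the knockdown libraries, a log2 fold change of −0.24 (adjusted p = 0.570) that was −0.41 without control replicate 1 and −0.13 without control replicate 2. *SETD1A* (chromosome 16, 30957294 to 30984664) had 12.95, 13.3 and 18.6 TPM in the control and 12.5, 17.7 and 15.6 TPM in the knockdown libraries. With 0.03 (adjusted p = 0.961) it had the smallest difference of all 10 members, and it lay between −0.075 and 0.19 with a library left out. *SETD1B* (chromosome 12, 121804009 to 121832656) had 5.94, 8.90 and 7.96 TPM in the control and 5.69, 7.15 and 6.74 TPM in the knockdown libraries, with a log2 fold change of −0.18 (adjusted p = 0.716), or −0.33 without control replicate 1 and −0.07 without control replicate 2. With standard errors from 0.19 to 0.29, changes of this size could not be told from none in these subunits.

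The order of the levels in control cells was led by *DPY30*, at 128.5 ± 8.53 TPM (SD, n = 3), above the range of every other subunit. The split of its reads with the overlapping *MEMO1* is uncertain, and the part of GC content in this order was not tested. *WDR5* (50.7 ± 8.06), *KMT2D* (45.1 ± 8.90) and *KMT2A* (43.0 ± 10.6 TPM) followed, with ranges that overlapped from each to the next. *ASH2L* was at position 5, below the range of *KMT2A* and within that of *KMT2B* (29.6 ± 7.68 TPM). *KMT2C* (23.4 ± 9.24), *SETD1A* (14.98 ± 3.18), *RBBP5* (11.8 ± 3.74) and *SETD1B* (7.60 ± 1.51 TPM) made up the rest, each overlapping its neighbour. In knockdown cells *ASH2L* was at position 8, below the range of *KMT2C* and above those of *SETD1B* (6.53 ± 0.753 TPM) and *RBBP5* (6.42 ± 0.850 TPM), which overlapped. This move of *ASH2L* restates the difference by which the group was chosen. *DPY30* was again first, at 117 ± 10.2 TPM.

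Ratios within a library do not depend on the scaling between libraries. They can still carry the GC drift of each library, as the subunits differ in GC content (*ASH2L* 47.6%, *RBBP5* 43.6%, *WDR5* 55.6%). The part of this drift in the ratios was not tested. *ASH2L* amounted to 70.9%, 65.4% and 51.1% of *WDR5* in control and 23.8%, 21.5% and 19.0% in knockdown libraries. Against *RBBP5* its ratio was 2.02, 2.74 and 3.65 in control and 1.23, 1.15 and 1.34 in knockdown libraries. Against the sum of the 6 catalytic subunits *ASH2L* stood at 21.1%, 17.7% and 18.6% in control and 5.52%, 4.38% and 5.18% in knockdown libraries. On the log2 scale, *ASH2L* relative to the geometric mean of *WDR5*, *RBBP5* and *DPY30* went from −0.43 ± 0.09 to −1.94 ± 0.09 (SD, n = 3 each). The groups were apart in each of these ratios, which rest on the same *ASH2L* values as the choice of the genes. The catalytic sum itself was 151, 175 and 165 TPM in control and 156, 178 and 141 TPM in knockdown libraries, with full overlap. Within this sum *KMT2A* held 26.6% ± 8.46 in control and 32.4% ± 4.39 in knockdown cells, *KMT2D* 27.4% ± 3.70 and 24.0% ± 3.25, and *KMT2C* 14.2% ± 4.75 and 9.46% ± 1.43 (SD, n = 3 each). The pair *SETD1A* and *SETD1B* held 9.17% and 4.62% in control and 9.67% and 4.15% in knockdown cells.

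**Figure D4:**
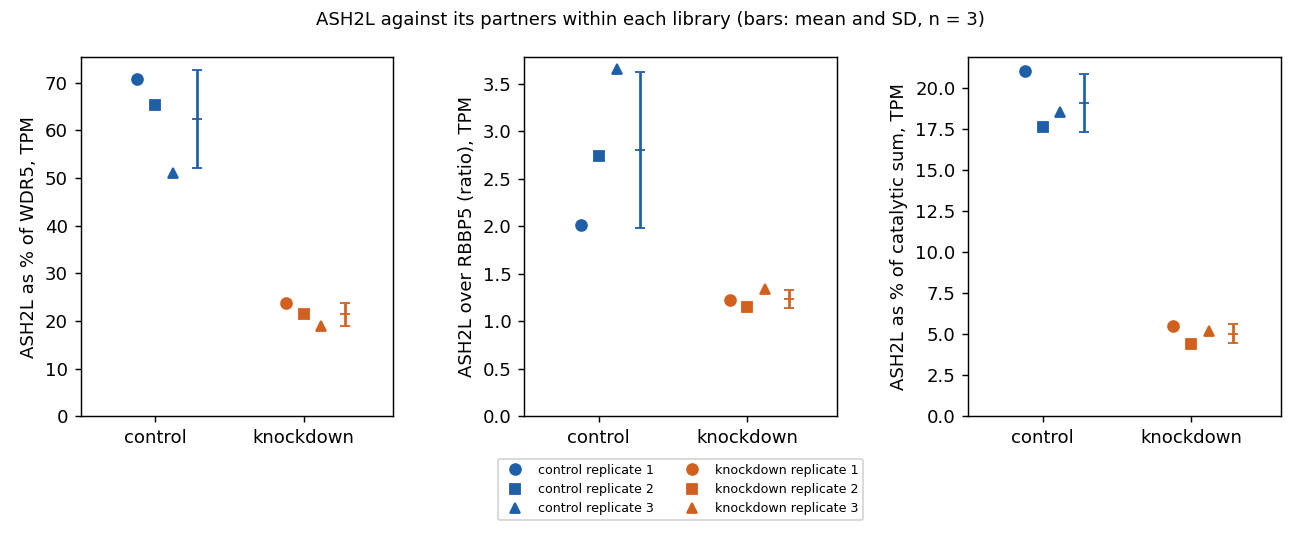
Level of *ASH2L* as a percentage of *WDR5*, as a ratio to *RBBP5* and as a percentage of the sum of the 6 catalytic subunits, from TPM, with a point for each library and the mean with SD (n = 3) beside it. In knockdown libraries the percentage of *WDR5* lies between 19.0 and 23.8, below the control range of 51.1 to 70.9.

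The 3′UTR of *ASH2L*, 1009 bases in its canonical transcript, holds GAGTGAA once, from base 316 after the stop codon. The match with *RAB30-DT* ends with these 7 bases, as the bases on either side differ. Of the 10 COMPASS genes, *ASH2L* was the 1 with such a site in the 3′UTR, read in the sense of the transcript, the only sense searched. Of 19183 coding genes whose 3′UTR spans 50 bases or more, 11.4% hold 1 or more sites, and 12.5% of the 11538 tested ones do. The median log2 fold change was −0.14 over tested genes with a site and −0.05 over those without. Among the 1446 tested genes with a site, 6 had a lower value than *ASH2L*, beside 35 of all 14020 tested genes. The motif was picked with these values known, so this is no independent evidence. Of 77 other genes of H3K4 methylation and its readers and targets whose 3′UTR reaches that length, 4 hold it. These were *WAC* (log2 fold change −0.02), *SETD7* (0.25), and *MEIS1* and *MAT1A*, which were below the filter. A site is a match of letters, and nothing here was measured on it.

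Over the 6 libraries, the 5 tested genes whose centred log2(TPM + 1) profile lay nearest to that of *ASH2L* were *RBBP4*, *PADI2*, *RPIA*, *CLU* and *PRPS2*. Their root-mean-square differences from it were 0.14, 0.16, 0.17, 0.19 and 0.20 on the log2 scale. *RBBP4*, which encodes a histone-binding WD40 protein, had 253, 206 and 188 TPM in the control and 60.8, 64.2 and 48.5 TPM in the knockdown libraries. *PADI2*, a peptidylarginine deiminase gene, went from 9.52 ± 1.62 to 1.88 ± 0.469 TPM, and *RPIA*, of the pentose phosphate pathway, from 36.0 ± 1.66 to 10.9 ± 0.938 TPM (SD, n = 3 each). *CLU*, an extracellular chaperone gene, went from 73.9 ± 4.50 to 23.6 ± 2.91 TPM, and *PRPS2*, of nucleotide synthesis, from 23.0 ± 3.78 to 5.27 ± 1.28 TPM. The likeness is dominated by the difference between the groups, which all 5 share by the way they were picked. *RBBP4* and *PRPS2* hold 1 GAGTGAA site each in the 3′UTR and the other 3 hold none, beside 12.5% of tested genes with a site. Both the motif and these 5 genes were picked from these data, so nothing is read from this count.

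Beyond the core and catalytic subunits, 78 genes that work with, against or downstream of COMPASS were listed by function, and 70 of them passed the filter. None was called by limma at an adjusted p under 0.05, while at an unadjusted p under 0.05 4 were lower and 2 higher, beside the 9.7% and 7.06% of all genes. Groups did not overlap in 13 lower and 2 higher genes, beside 13.4% and 9.89% of all genes. Their median log2 fold change was −0.05, beside −0.04 over all genes tested.

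**Figure D5:**
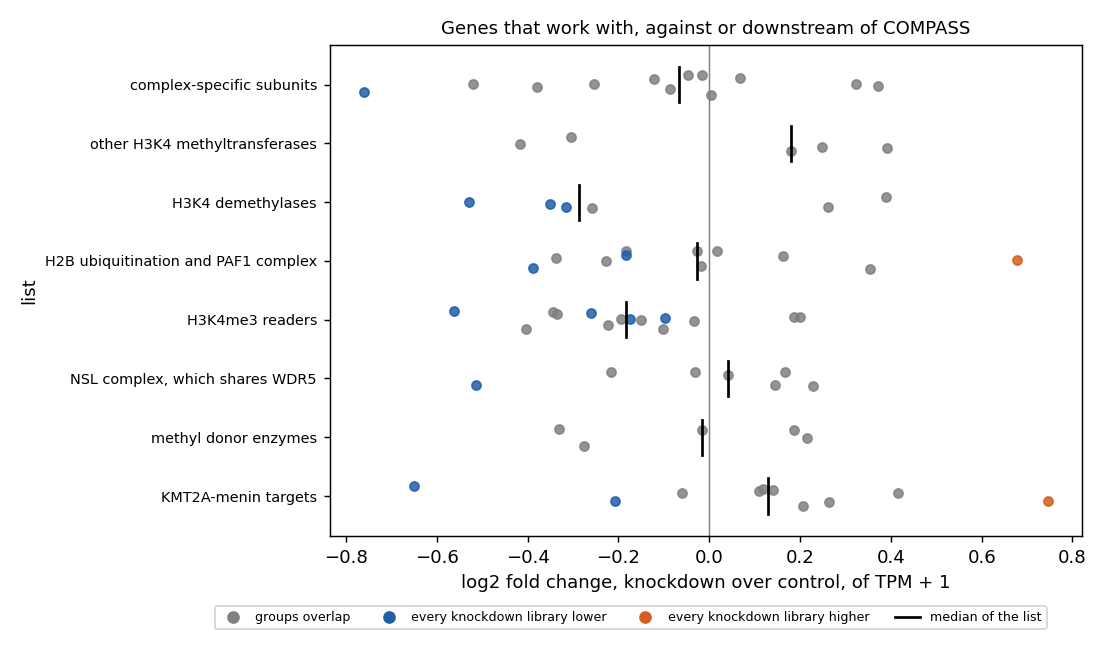
Log2 fold change, knockdown over control, of the 70 companion genes that passed the filter, 1 point for each gene and 1 row for each list, with the list median as a black line. Blue and orange points are genes with every knockdown library below or above the control range. The points lie between −0.76 and 0.75.

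Of 12 subunits particular to some COMPASS complexes, all passed the filter. *HCFC1* alone was without overlap, in the lower direction, beside 13.4% of all genes tested. *HCFC1*, the host cell factor of the SETD1 and KMT2A/B complexes, had 30.4, 42.3 and 50.6 TPM in the control and 21.4, 24.2 and 24.5 TPM in the knockdown libraries. Its log2 fold change of −0.76 (standard error 0.22, adjusted p = 0.141) was the lowest of the companion genes. It was called with the GC trend removed (adjusted p = 0.0181), with a replicate block (adjusted p = 0.0429) and with both (adjusted p = 0.0366). Without control replicate 1 it was called too (adjusted p = 0.0341), and with other libraries left out the adjusted p reached 0.413. With libraries weighted by their agreement, where limma called 3218 genes in all, its adjusted p was 0.00505. *PAGR1*, of the KMT2C/D complexes, was at 10.01 ± 2.99 and 6.49 ± 0.627 TPM (SD, n = 3 each) with an adjusted p of 0.345. The most abundant of these genes were *PSIP1*, the chromatin tether of the menin complexes, at 92.3 and 70.7 TPM (−0.38), and *BOD1*, of the SETD1B complex, at 64.5 and 60.7 TPM (−0.09).

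Among other H3K4 methyltransferases, 5 of 8 passed the filter and none was without overlap, beside 13.4% (lower) and 9.89% (higher) of all genes tested. *SMYD2* was at 38.8 and 31.5 TPM and *SMYD3* at 26.5 and 34.0 TPM in control and knockdown cells, with log2 fold changes of −0.31 and 0.39. *SETMAR* was at 5.41 and 3.67 TPM (−0.42, adjusted p = 0.480). *PRDM9*, the meiotic methyltransferase, and the muscle gene *SMYD1* were listed at 0 TPM in every library.

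H3K4 demethylases remove what COMPASS adds, and 3 of the 6 tested were without overlap in the lower direction, beside 13.4% of all genes tested. None was without overlap in the higher direction. *KDM1A*, the flavin-dependent enzyme LSD1, had 105, 94.5 and 79.7 TPM in the control and 77.3, 74.4 and 65.7 TPM in the knockdown libraries (−0.35, adjusted p = 0.337). *RIOX1* was at 9.68 ± 1.04 and 6.39 ± 0.566 TPM (SD, n = 3 each; −0.53, adjusted p = 0.226), and the third was *KDM5C* (−0.31), named after its values were seen. *KDM5A* and *KDM5B*, JmjC enzymes for trimethylated H3K4, were at 25.9 and 18.9 TPM in control and 30.8 and 24.9 TPM in knockdown cells, with overlap and log2 fold changes of 0.26 and 0.39. The median of the list was −0.29.

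Ubiquitination of histone H2B precedes H3K4 methylation, and of 11 genes for it and for the PAF1 elongation complex, 2 were without overlap in the lower and 1 in the higher direction, beside 13.4% and 9.89% of all genes tested. *UBE2B*, an E2 enzyme for H2B, had 58.2, 48.5 and 36.1 TPM in the control and 91.3, 61.9 and 75.5 TPM in the knockdown libraries. Its log2 fold change of 0.68 (standard error 0.23) had an adjusted p of 0.194, or 0.0365 with the GC trend removed, and from 0.0710 to 0.475 with a library left out. Its near copy *UBE2A* was at 87.4 and 96.8 TPM (0.16). *PAF1* was at 65.5 ± 5.44 and 49.7 ± 2.17 TPM (SD, n = 3 each; −0.39, adjusted p = 0.255), and *WAC*, which binds the H2B ligase, at 65.7 and 64.0 TPM. The other gene without overlap was *SKIC8*, a subunit of the PAF1 and SKI complexes, at −0.18, named after its values were seen.

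Of 14 readers of H3K4 trimethylation, 12 were below 0 on the log2 fold change scale, where 53.7% of all genes tested were, and 4 were without overlap in the lower direction, beside 13.4% of all genes. Their median was −0.18. *PHF2* (−0.10), *PHF13* (−0.26) and *DIDO1* (−0.17), named after their values were seen, were 3 of these 4, and *ING1* was the other. *ING1*, a PHD finger protein of histone deacetylase complexes, had 14.0, 16.3 and 31.0 TPM in the control and 12.04, 13.8 and 12.3 TPM in the knockdown libraries. Control replicate 3 was the high library, and the change went from −0.56 to −0.23 without it. *ING5* was at 25.1 ± 9.76 and 17.99 ± 2.72 TPM (SD, n = 3 each; −0.40). The most abundant readers, *SPIN1* and *BPTF*, the latter a subunit of the NURF remodeller, were at 68.3 and 30.7 TPM in control and 60.9 and 35.6 TPM in knockdown cells. None of the 14 had an unadjusted p under 0.05.

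WDR5 also serves the NSL acetyltransferase complex, of which 7 further genes were tested. Of these, 1 was without overlap, in the lower direction, beside 13.4% of all genes tested. This was *MCRS1*, with 55.7, 59.2 and 91.7 TPM in the control and 40.7, 51.1 and 49.2 TPM in the knockdown libraries (−0.51, adjusted p = 0.2996). Without control replicate 3, the high library, its change was −0.29. *OGT*, the O-GlcNAc transferase, was at 75.2 and 84.0 TPM and *KANSL1*, the scaffold, at 24.8 and 29.5 TPM, with overlap. The methyl donor for H3K4 methylation is S-adenosylmethionine. Of the 5 tested genes listed with it, not all of them enzymes that make or clear it, none was without overlap. Of all genes tested, 13.4% were without overlap in the lower and 9.89% in the higher direction. *MAT2A*, which makes it, was at 362 ± 62.4 and 297 ± 36.3 TPM (SD, n = 3 each; −0.28), *AHCY*, which clears the by-product, at 214 and 210 TPM, and *AHCYL1* at 65.5 and 50.9 TPM (−0.33).

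Genes that KMT2A and menin are known to keep active were tested for 10 of 14, and 7 of these were above 0 on the log2 fold change scale, where 46.3% of all genes tested were, with a median of 0.13. All of the 10 but *CDKN1B* and *CDKN2C* are *HOXA* genes of a single cluster on chromosome 7, so they may not vary independently. Control means of these *HOXA* genes ran from 1.16 to 14.6 TPM. *HOXA3* had 2.42, 2.91 and 1.98 TPM in the control and 6.09, 3.88 and 4.44 TPM in the knockdown libraries. It was the 1 gene without overlap in the higher direction (0.75, standard error 0.25, adjusted p = 0.194), at a low level. Of all genes tested, 9.89% were without overlap in the higher and 13.4% in the lower direction. *HOXA10*, without overlap in the lower direction like *CDKN2C*, and named after its values were seen, was at 14.6 ± 1.23 and 12.5 ± 0.231 TPM (SD, n = 3 each; −0.21). *CDKN2C*, an inhibitor of the G1 kinases CDK4 and CDK6, had 35.4, 44.1 and 51.0 TPM in the control and 26.0, 27.3 and 27.9 TPM in the knockdown libraries. Its change of −0.65 (standard error 0.19) was not called (adjusted p = 0.142). It was called with a replicate block (adjusted p = 0.0489), also with the GC trend removed as well (adjusted p = 0.0453). Without control replicate 1 it was called too (adjusted p = 0.0496), and with other libraries left out the adjusted p reached 0.431. With libraries weighted by their agreement, where limma called 3218 genes in all, its adjusted p was 0.00597. *CDKN1B*, the other cell cycle inhibitor on the list, was at 24.1 and 26.5 TPM (0.14).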

How the data were processed

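Gene expression was measured by RNA–Seq of poly-A RNA in 3 control and 3 *RAB30-DT* knockdown libraries of SK-Hep-1 cells, grouped by their titles. The values the authors deposited are TPM per gene, given with 2 decimals. Their methods name fastp, STAR and RSEM with GENCODE Release 45, whereas the submitters' processing notes name fastp, HISAT2 (2.0.5) and hg38. All 62700 versioned identifiers were those of GENCODE Release 44, used here for names, positions on hg38, transcripts, GC content of the canonical transcript and 3′UTRs. Whether reads were counted by strand is not given in the sources used here.

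A linear model was fitted to log2(TPM + 1) using limma 3.58.1 under R 4.3.3 (lmFit, eBayes with trend, 2-sided, no replicate block, no normalization between libraries) for genes whose mean reached 1 TPM, followed by Benjamini–Hochberg adjustment over all of them and calls at an adjusted p under 0.05. The GC trend was a loess curve (span 0.3) subtracted in each library. Members, lists and alternatives were chosen with earlier results of these data known. Genes named were all members, any companion gene called, per companion list the 2 with the highest mean TPM and the 2 with the largest absolute log2 fold change, the 3 nearest tested genes on each side of *ASH2L*, and the 5 with the nearest profile; others are marked. Libraries with the same replicate number were not treated as pairs. TPM give no depth. A leukocyte marker of the identity lists is not reported here.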

Additional observations from a re-analysis of the deposited data

How the results depend on the processing

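*ASH2L* chose the group by its fall in these libraries, so its values and calls under other settings are description and no support. The difference in *ASH2L* stayed below 0 in all 18 alternatives, at −1.97 with a pseudocount of 0.1, −1.49 with a pseudocount of 5 and between −1.91 and −1.80 with a library left out. Relative to the other core subunits it was −1.51 from TPM and −1.41 with a pseudocount of 1. Of the 162 values of the other 9 members, 151 kept their direction and their side of the threshold. *DPY30* turned to 0.0021 after quantile normalization. With a library left out, *KMT2B* lay between −0.030 and 0.33 (−0.023 without control replicate 1, −0.030 without knockdown replicate 2) and *SETD1A* between −0.075 and 0.19 (−0.058 and −0.038 without control replicates 1 and 2, −0.075 without knockdown replicate 2). The counts of called members, companion genes and all genes, 1, 0 and 146 by limma, were 2, 2 and 1267 with the GC trend removed, 4, 10 and 3218 with libraries weighted by arrayWeights, 1, 2 and 861 with a replicate block, and 2, 2 and 1081 with the replicate block and the GC trend removed. They ranged from 0 to 1, 0 to 2 and 12 to 489 with a library left out. With no filter on low values 13 genes were called, *ASH2L* among them. The weights were 3.00 and 4.39 for control and knockdown replicate 2 and at most 0.948 for the others. Deviations from the group means correlated between libraries of the same number at 0.41, 0.0359 and 0.279 for replicates 1, 2 and 3. With the GC trend removed these were 0.187, 0.0142 and 0.123. Replicates 1 and 3 thus shared part of their deviations, but the numbers were not taken as pairing because the study's methods state none. With the replicate block *ASH2L* was still the 1 called member. The cause of these shifts was not tested. The 3 libraries per group limit the precision, and the depth is unknown.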
